A study of Mus musculus with 2 samples.

Results

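The cells described here are the blood and lymphatic endothelial cells of embryonic mouse skin at E14.5. They were selected on their own transcripts: a barcode had to be absent from the dermal cell list of its library, to hold 1000 or more genes, to have under 10% of its UMIs (unique molecular identifiers, counted transcript molecules) in mitochondrial genes, and to contain at least 4 of Pecam1, Cdh5, Kdr, Cldn5, Emcn, Egfl7, Ramp2, Esam, Tie1 and Tek. A member was called lymphatic when at least 2 of Prox1, Flt4, Mmrn1, Reln and Ccl21a were detected and Prox1 was among them, and blood endothelial otherwise. In all, 186 of 19514 barcodes met the rule, 76 of 9065 in the wildtype library and 110 of 10449 in the mutant library. The wildtype members were 61 blood and 15 lymphatic cells, and the mutant members were 77 blood and 33 lymphatic cells.

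The series holds 1 droplet single-cell RNA library per genotype from dorsolateral and flank skin. The mutants came from crossing mice that carry K14Cre with Wntless fl/fl mice, and the controls are wildtype littermates. Wntless (Wls) is the carrier that brings Wnt ligands to the cell surface, and the K14 promoter drives Cre in keratinocytes, so the deletion is placed in the epidermis and the endothelium is not its target. Each library pools 2 to 3 embryos of 1 genotype, dissociated with trypsin and sorted after DAPI staining, and both were prepared in parallel. With 1 library per genotype there is no replicate: all intervals below are exact 95% intervals that cover counting error only, a difference between the libraries cannot be told apart from a difference between the genotypes, and no test was made.

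Blood endothelium lines arteries, capillaries and veins, carries nutrients and lipids to the tissue and is held together by VE-cadherin (Cdh5). Lymphatic endothelium arises from venous endothelium under the transcription factor Prox1 and grows toward VEGF-C through the receptor VEGFR3 (Flt4) and its partner neuropilin 2 (Nrp2). In embryonic skin both networks spread through the dermis while the overlying epidermis secretes Wnt ligands that act on the dermal fibroblasts below.

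The wildtype library held 112593376 UMIs with a median of 11341 per barcode, and the mutant library held 159841679 with a median of 14602. Mutant members were also deeper: the median member held 14709 UMIs in wildtype blood, 13690 in wildtype lymphatic, 21465 in mutant blood and 19040 in mutant lymphatic cells. The libraries shared 19 barcodes, of which 2 belonged to wildtype members and 0 to mutant members. Members made up 3.08% (2.44 to 3.85%) of the 2464 wildtype and 4.69% (3.87 to 5.63%) of the 2345 mutant barcodes that were off the dermal list and passed the same limits on genes and mitochondrial UMIs.

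Barcodes held either few or most of the endothelial genes. Off the dermal lists, all 10 endothelial genes were found in 21 wildtype and 24 mutant cells and exactly 9 in 28 and 42, while 2 wildtype and 0 mutant cells held exactly 5. At 4 genes, just inside the threshold, there were 4 wildtype and 14 mutant cells. At 3 genes, just outside it, there were 38 and 87, with a median of 6 and 5 mural markers detected. No cell of either dermal list held 6 or more of the genes. Exactly 4 were found in 2 wildtype and 16 mutant dermal cells, and 5 in 1 wildtype dermal cell.

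**Figure D1:**
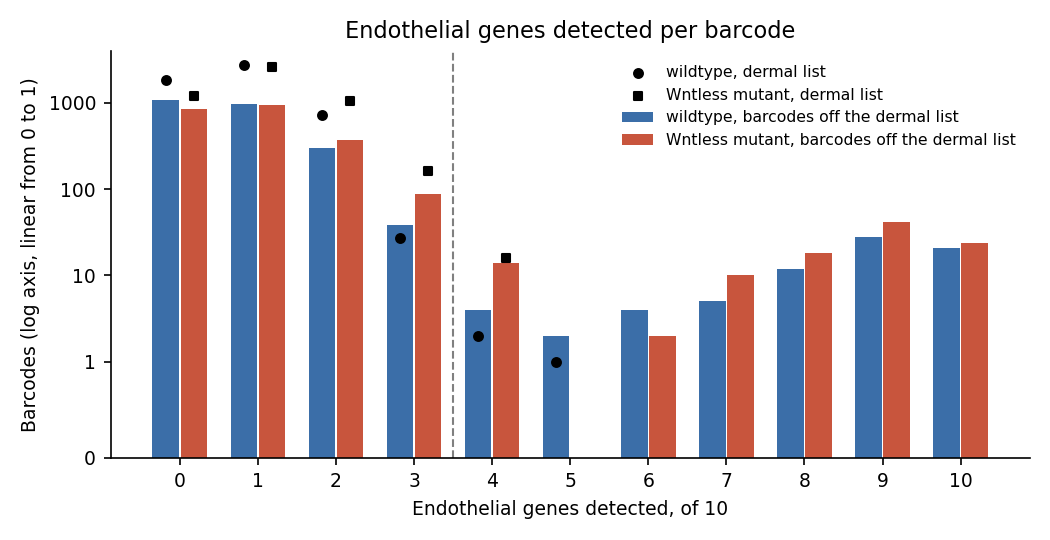
Number of barcodes (y axis) by how many of the 10 endothelial genes they contained (x axis, 0 to 10). Bars stand for barcodes off the dermal list in each library, black points for barcodes on it, and the dashed line marks the threshold of 4 genes; counts drop to 2 wildtype and 0 mutant cells at 5 genes, climb to 28 and 42 at 9, and the dermal lists reach at most 5.

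The label was checked against markers of other cell types. Most members with only 4 or 5 of the endothelial genes went against it. The 6 wildtype cells held a median of 0.0232% of their UMIs in the endothelial genes and the 14 mutant cells 0.0205%. Members with 6 to 10 held 0.441% and 0.463%. At least 3 mural markers (pericyte and smooth muscle genes such as Rgs5, Pdgfrb and Acta2) were detected in 5 of these 6 wildtype and 12 of these 14 mutant cells. The members with 4 or 5 genes had medians of 35829.5 and 36571 UMIs, and supplied 12.6% of all wildtype and 20.5% of all mutant member UMIs. An exception among them was 1 wildtype lymphatic cell of 9510 UMIs with 5 endothelial and all 5 lymphatic genes. It held 0.599% endothelial and 0.757% lymphatic UMIs and no markers of another class. The core set defined below leaves it out on its endothelial gene count alone. Markers of another class are counted here as 3 or more detected markers of it, except for fibroblasts and red blood cells, which are counted only above 1% of UMIs in Col1a1, Col1a2 and Col3a1 or in haemoglobin. Among members with 6 to 10 genes, markers of another class were found in 17 of 70 wildtype cells, among them mural markers in 10, macrophage markers in 6 and erythroid markers in 6, and in 12 of 96 mutant cells, among them mast cell markers in 8 and macrophage markers in 4.

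For that reason the lists are counted over all members and over 137 core members, a set defined after these values were seen. A core member held 6 or more endothelial genes and no markers of another class by the same definition, so a cell with fibroblast markers below the 1% mark could pass. Over all 8 fibroblast markers the core cells reached up to 1.18% of UMIs. It was called lymphatic from 3 or more of the 5 lymphatic genes, whether or not Prox1 was among them. This left 38 blood and 15 lymphatic cells in the wildtype library and 56 blood and 28 lymphatic cells in the mutant library. Summed over 9 mural markers, core blood cells held 10.3 CPM (UMIs per 1000000 UMIs of the group) in wildtype and 11.1 in mutant, with Rgs5, Acta2 and Myh11 at 0 in both, against 228 and 290 over all blood members. Summed over 8 fibroblast markers they held 76.2 and 1079 CPM, against 4142 and 4063 over all blood members. Of the mutant core blood cells, 4 held 0.1% or more of their UMIs in fibroblast and mural markers, as did 1 wildtype core blood cell, 1 wildtype core lymphatic cell and 0 mutant core lymphatic cells. That wildtype lymphatic cell supplied 25.7% of the UMIs of its group. Several of the counts that turn on these 6 cells are given without them too. A further core cell went against its label: 1 mutant lymphatic cell with all 10 endothelial and 3 lymphatic genes held 0.0153% of its 32781 UMIs in the 5 lymphatic genes, against 0.494% or more in the other mutant core lymphatic cells.

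**Figure D2:**
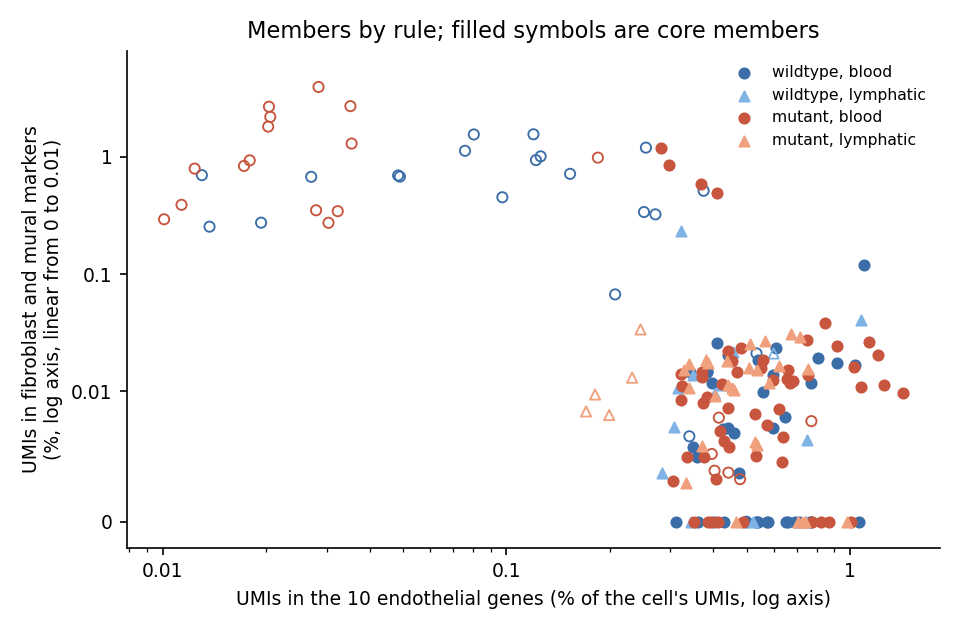
Each point is 1 member, placed by the percent of its UMIs in the 10 endothelial genes (x axis) and in the fibroblast and mural markers (y axis), by library and by class. Filled points are core members. Most members with 4 or 5 endothelial genes lie toward the left edge, with endothelial medians of 0.0232% and 0.0205%, but 1 wildtype lymphatic cell with 5 lies at 0.599%.

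The definition of lymphatic cells also left out cells with few Prox1 molecules. In the wildtype library, 5 members without a Prox1 UMI held 3 or 4 of the other lymphatic genes, with 80, 43, 73, 42 and 38 UMIs of Ccl21a, and the rule counted them as blood. No mutant member without Prox1 held 3 or more of these genes. Over all blood members, Ccl21a stood at 276 UMIs in the wildtype library, all in 5 cells, and at 0 in the mutant library. Of these 5 cells, 4 are core lymphatic members. Ccl21a values sum 2 annotated genes with this symbol, and near-identical copies of the gene may share reads.

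Among the genes that chose the members, VEGFR2 (Kdr), the main VEGF-A receptor of blood vessels, was found in blood and lymphatic cells alike. In core cells it reached 497 CPM in wildtype blood, 538 in wildtype lymphatic, 395 in mutant blood and 515 in mutant lymphatic cells, and 0.84 and 0.83 CPM in the dermal cells of the libraries. Emcn, a sialomucin of capillary and venous endothelium, stood at 369 CPM in blood cells of both libraries, 46.4 CPM in wildtype and 58.8 in mutant lymphatic cells. Esam, an adhesion molecule of tight junctions, had 173 and 401 UMIs in blood cells, 0 in wildtype lymphatic cells and 8 in mutant lymphatic cells, all 8 in 1 cell. Prox1 had 84 UMIs in the 15 wildtype and 287 in the 28 mutant core lymphatic cells, with 2 and 1 in core blood cells. Prox1 lies on chromosome 1 at 190118035 to 190170714 of the mouse genome build GRCm38. These values were used to choose the cells and describe them only.

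Lymphatic and blood cells were then compared gene by gene within each library. A gene was counted as higher or lower when the CPM differed at least 2-fold in the same direction in both libraries; because the cells were sorted into the classes on their own transcripts, these values are descriptions. Among core members 311 of 8202 measured genes (20 or more UMIs) were higher in lymphatic cells, which is 3.79%, and 362 were lower, which is 4.41%. Over all members 275 of 10076 genes were higher, 2.73%, and 330 were lower, 3.28%. These counts include the 15 genes that chose and divided the members; the list counts given below leave them out. Among all members the genes most strongly lower in lymphatic cells included Ptn, Dlk1, Dcn, Cd248, Pdgfrb and Cox4i2, which are fibroblast and mural genes: Cox4i2 had 204 UMIs in 8 wildtype and 206 in 9 mutant blood members, and 1 UMI in all core blood cells. The comparison below therefore uses core members.

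The lymphatic identity list carried the largest difference. Of its 24 measured genes, 20 were higher and 0 lower in core lymphatic cells, with a median log2 ratio of 2.79 in the wildtype and 3.11 in the mutant library, against 0.03 and -0.02 over all measured genes. Over all members it was 19 of 27 higher, with medians of 1.81 and 2.54. Lyve1, a hyaluronan receptor of lymphatic capillaries on chromosome 7 at 110850607 to 110863239, was detected in 12 of 15 wildtype (99 UMIs) and 23 of 28 mutant lymphatic cells (227 UMIs) and in none of the 38 and 56 blood cells. Taking 3 UMIs as the limit that a count of 0 allows, Lyve1 was at least 74.3-fold higher in wildtype and at least 142-fold higher in mutant lymphatic cells. Podoplanin (Pdpn), a membrane glycoprotein needed to keep lymph and blood apart, had 38 and 60 UMIs in lymphatic cells and 0 in blood cells of both libraries. Stab1, a scavenger receptor, had a log2 ratio of 3.48 (2.75 to 4.27) in wildtype and 3.06 (2.66 to 3.48) in mutant cells. For all 3 genes the floor or the lower bound of the interval lay above 2-fold in both libraries.

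Several of these genes were not particular to lymphatic cells among the cells of the skin. Lyve1 stood at 459 CPM in wildtype core lymphatic cells and at 1268 CPM in wildtype macrophages, 392 and 1116 CPM in the mutant library. Maf, a transcription factor of lymphatic vessels and macrophages, stood at 339 CPM in wildtype lymphatic cells, 2.06 in wildtype core blood cells and 1464 in wildtype macrophages. Macrophage markers were summed for that reason. The complement genes C1qa and C1qb and the receptor genes Csf1r and Cx3cr1 were at 0 UMIs in core lymphatic cells of both libraries. C1qc, Fcer1g and Tyrobp were at 0 in the wildtype but detected in the mutant library. The sum of 9 macrophage markers, which held Mrc1, was 125 and 112 CPM, against 80.3 and 839 over all lymphatic members. Cells with 3 or more of these markers had been left out of the core set, so the low core values were largely set by the selection. Ccl21a, the chemokine that draws dendritic cells into lymphatic vessels, stood at 4067 and 5700 CPM in core lymphatic cells and at 0.95 CPM or less in dermal cells, macrophages, keratinocytes and mural cells of both libraries.

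**Figure D3:**
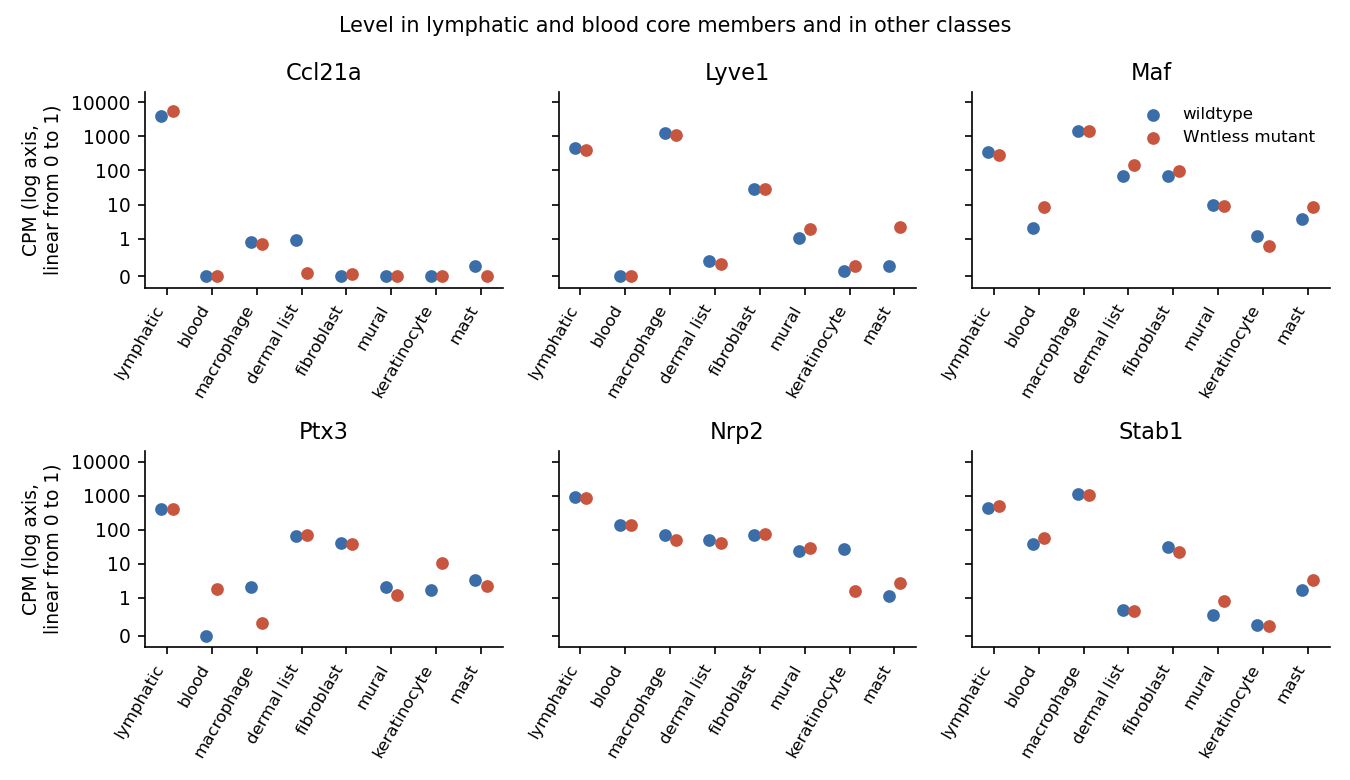
CPM (y axis, log scale) of Ccl21a, Lyve1, Maf, Ptx3, Nrp2 and Stab1 in core lymphatic cells, core blood cells and 6 other classes of skin cells, for each library. Ccl21a is found at 4067 and 5700 in lymphatic cells and near 0 elsewhere, while Lyve1, Maf and Stab1 are higher in macrophages than in lymphatic cells.

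The other genes most strongly higher in core lymphatic cells were Ptx3, Nnat, Maf, Nts, Rnase4, Kctd12, Sgk3, Itm2a, Nrp2 and Selenop. Ptx3, a secreted pentraxin, had 86 UMIs in 14 of 15 wildtype and 238 UMIs in 23 of 28 mutant lymphatic cells, against 0 and 2 UMIs in blood cells. Nnat, an imprinted membrane proteolipid, had a log2 ratio of 5.29 (3.66 to 7.61) in wildtype and 5.25 (4.24 to 6.48) in mutant cells. Nts, the neurotensin precursor, had 61 and 55 UMIs in lymphatic cells and 0 in blood cells. Selenop, a selenium transport protein, was the least separated of the group, at 2.07 (1.56 to 2.59) and 2.35 (2.06 to 2.66) on the log2 scale.

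Of 27 measured endothelial transcription factors other than Prox1, 4 were higher in lymphatic cells and 3 lower, and over all members it was 5 of 31 higher and 1 lower. Those higher in core cells were Nr2f2 (COUP-TFII, the venous factor that switches on Prox1), Maf, Tbx1 and Nfatc1 (a factor of lymphatic valves). Nr2f2 stood at 288 against 65.9 CPM in the wildtype library and at 239 against 69.1 CPM in the mutant library. Those lower were Sox7, Sox17 (an arterial factor) and Meox2. Sox18, which induces Prox1, was close to equal in the classes, with log2 ratios of 0.25 (-0.25 to 0.74) and -0.02 (-0.35 to 0.30).

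VEGF receptors were divided between the vessel types. Flt1 (VEGFR1), a decoy receptor that holds VEGF-A, had 121 UMIs in 35 of 38 wildtype and 237 UMIs in 50 of 56 mutant core blood cells. In lymphatic cells it had 0 UMIs in the wildtype and 2 in the mutant library, both in 1 cell. That makes Flt1 at least 17.9-fold lower in wildtype lymphatic cells and 63.1-fold lower in the mutant, where the log2 ratio was -5.98 (-9.04 to -4.11). Neuropilins were exchanged: Nrp1, the partner of VEGFR2, had log2 ratios of -3.65 (-5.96 to -2.06) and -5.24 (-7.13 to -3.87), while Nrp2 had 2.77 (2.36 to 3.19) and 2.64 (2.37 to 2.92). Nrp2 was detected in all 43 core lymphatic cells. Of the ligands and modulators, Pgf (placental growth factor) and Angpt2 (a Tie2 ligand) were higher in lymphatic cells, and Ptprb, Aplnr, Apln, Adgrl4 and Adgrf5 were lower. In all, 3 of 14 genes of this axis were higher and 7 lower, and over all members 3 of 19 were higher and 2 lower (Flt1 and Nrp1). In the mutant lymphatic cells all Flt1 and Nrp1 UMIs were in the cell with 0.0153% lymphatic UMIs. Among ligands, Vegfa stood at 0 CPM in wildtype and 3.69 in mutant core blood cells against 26 and 27.7 in dermal cells. Vegfd stood at 52.4 and 59.7 CPM in dermal cells, and Angpt1 at 50.2 and 75.2 CPM in mural cells. Other ligands were found in endothelium: Pgf had 50 and Angpt2 19 UMIs in mutant core lymphatic cells, and Vegfc was detected in core blood cells of both libraries.

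Blood cells carried the genes of fatty acid and nutrient transport. Of 19 measured genes of that list, 11 were lower and 0 higher in core lymphatic cells, with medians of -2.15 and -1.61. Fabp4, a fatty acid binding protein encoded on chromosome 3 at 10204088 to 10208576, had 388 UMIs in 18 of 38 wildtype and 1097 UMIs in 34 of 56 mutant blood cells, against 7 and 26 UMIs in lymphatic cells. Its log2 ratio was -4.62 (-5.95 to -3.56) in wildtype and -4.49 (-5.11 to -3.93) in mutant cells. Gpihbp1, which anchors lipoprotein lipase on capillary walls, had ratios of -3.85 (-5.18 to -2.78) and -2.62 (-3.14 to -2.13), and the fatty acid translocase Cd36 had -3.85 (-6.93 to -1.94) and -2.92 (-3.82 to -2.14). Meox2 and Tcf15, factors that act together on these genes in heart capillaries, were both lower in lymphatic cells, with Tcf15 at 80 and 218 UMIs in blood cells and 2 and 3 in lymphatic cells. Over all members only Tcf15 and Aqp1 of 21 measured genes passed the limit, with medians of -0.04 in the wildtype and -1.05 in the mutant library. The wildtype lymphatic members held 171 UMIs of Fabp4 against 7 in the core lymphatic cells.

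Some arterial and Notch genes were lower in lymphatic cells too. Of 18 arterial genes, 9 were lower and 0 higher, with medians of -1.06 and -2.06; without the 6 core cells named above it was 4 lower and 1 higher, with medians of -0.66 and -2.25. Over all members it was 4 of 18 lower and 0 higher. Stmn2, a tubulin regulator found in arterial endothelium, had 57 and 92 UMIs in blood cells against 3 and 4 in lymphatic cells. Of 14 Notch pathway genes, 4 were lower: Notch4, the Notch receptor of endothelium, its ligand Jag1, the feedback gene Nrarp and the Notch glycosyltransferase Mfng. Without the 6 cells it was 3 of 13, and over all members 0 of 18 passed in either direction. Nrarp had log2 ratios of -2.08 (-3.58 to -0.87) and -2.47 (-3.46 to -1.62).

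The BMP axis, through which ALK1 (Acvrl1) and endoglin (Eng) quiet blood vessels, had 7 of 18 genes lower and 0 higher. Without the 6 cells it was 4 lower and 1 higher, and over all members 5 of 21 were lower. The 7 were both receptors, Smad7, Ccn2 and the response genes Id1, Id2 and Id3. Id3 stood at 740 against 246 CPM in wildtype and 710 against 287 CPM in mutant cells. Of 10 adhesion and chemokine genes, 5 were lower: Madcam1, Cd34, Cd93, Cxcl12 and Cxcr4; without the 6 cells it was 3 of 9, and over all members 5 of 12. Cd34 had 222 and 385 UMIs in blood cells and was found in 37 of 38 and 56 of 56 of them; in lymphatic cells it had 1 and 22 UMIs, with 14 of the 22 in 1 cell. Of 22 basement membrane genes, 8 were lower, among them Col4a1, Col4a2, Hspg2 and Sparc, and 4 were higher (Emilin1, Fbn1, Itga9 and Itgav); over all members it was 4 of 25 lower and 1 higher, Itga9. Col4a1, a collagen chain of basement membranes, stood at 1234 against 172 CPM in wildtype and 1295 against 292 CPM in mutant cells. Emilin1 and integrin alpha 9 (Itga9) belong to the elastic fibre attachment of lymphatic valves and capillaries, and Itga9 had ratios of 2.81 (1.62 to 4.17) and 2.18 (1.33 to 3.09).

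No proliferation gene passed the limit between the classes of core cells. Of 50 measured G2M genes, 0 were higher and 0 lower, with medians of -0.28 and 0.04, and of 42 S phase genes 0 were higher and 0 lower, with medians of -0.12 and -0.05. Without the 6 cells 1 S phase gene was lower, and over all members 2 of 52 G2M genes were lower. Of 9 measured Wnt and beta-catenin responders, 0 were higher and 2 lower (Sox17 and Slc2a1, which also belong to the arterial and transport lists), and over all members 1 of 15 was lower, Axin2. Among venous genes 2 of 8 were higher in lymphatic cells, Nr2f2 and Nrp2. In the same list 3 were lower: Aplnr, Vwf (von Willebrand factor) and Plvap, which builds the diaphragms of capillary pores. Without the 6 cells it was 2 of 8 higher and 2 lower, and over all members 2 of 11 higher and 1 lower, Vwf. In the mutant lymphatic cells all 10 Aplnr UMIs, 11 of 15 Sparcl1 UMIs and 10 of 12 Rgcc UMIs were found in 1 cell, the cell with 0.0153% lymphatic UMIs; the 15 wildtype lymphatic cells held 0 of each. Without that cell, 308 genes were higher and 376 lower in core lymphatic cells, and 20 of 24 lymphatic identity genes were higher as before.

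Promoters of 3 genes are shown because they carry the 6-letter core of ETS factors, the factor family common to all endothelium: Flt1 as a blood gene, Stab1 as a lymphatic gene and Egfl7, which both classes share. The sequences are those of RefSeq on build GRCm38.p6, 100 bases within the 250 before the annotated start, 5′ to 3′ on the strand of the gene, with AGGAAG or its reverse complement CTTCCT in capitals.
Flt1, chr5:147726012-147726111, minus strand: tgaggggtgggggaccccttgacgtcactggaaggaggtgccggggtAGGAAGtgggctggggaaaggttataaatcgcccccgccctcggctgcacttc
Stab1, chr14:31168705-31168804, minus strand: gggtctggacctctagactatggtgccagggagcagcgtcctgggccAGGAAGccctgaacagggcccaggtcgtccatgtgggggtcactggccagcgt
Egfl7, chr2:26580983-26581082, plus strand: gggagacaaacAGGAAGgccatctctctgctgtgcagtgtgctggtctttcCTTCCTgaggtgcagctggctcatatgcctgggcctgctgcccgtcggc

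The match ends 47 bases before the start in Flt1 and 110 in Stab1, and the nearer of the 2 in Egfl7 ends 43 bases before it. RefSeq windows were matched by symbol for 237 of the 311 genes higher and 275 of the 362 genes lower in core lymphatic cells. AGGAAG on either strand was found in the 250 bases before the start in 29.2% of 336 windows of higher genes, 32.0% of 363 windows of lower genes, 27.4% of 8419 windows of all genes measured and 29.5% of 32851 windows of all genes. A MAF half-site, TGCTGA, was found in 12.8%, 12.1%, 11.5% and 16.1% of them. A nuclear receptor half-site, AGGTCA, was found in 8.33%, 10.7%, 10.2% and 14.0%. Neither gene group stood far from all measured genes for any of the 3 motifs, and a match is a run of letters, not a measured binding site.

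Blood members varied among themselves. Clustering of all 186 members without the rule genes and the cell cycle genes gave 6 clusters. One of 29 cells was arterial-like, with 12 of 18 arterial genes among its 50 leading genes, and another of 44 cells was lymphatic-like, with 14 lymphatic identity genes among its 50; 42 of those 44 were core members. A cluster of 49 cells had Fabp4, Aplnr and Tcf15 among its leading genes, with 2 venous genes among its 50, and stayed unnamed, as did a cluster of 24 led by histone genes. A cluster of 25 had 7 fibroblast and 6 macrophage markers among its 50 leading genes and a cluster of 15 had 7 mural and 4 mast cell markers; they held 4 and 0 core members. Gja4, the connexin of arterial endothelium on chromosome 4 at 127311421 to 127314039, was found in 13 of 38 wildtype and 15 of 56 mutant core blood cells, and was absent from most blood cells of each library. In thinned dermal cells it was found in 0 of 5097 wildtype cells, which allows a share of up to 0.0589%, and in 0.0608% of 4934 mutant cells.

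Lymphatic cells made up 19.7% (11.5 to 30.5%) of the 76 wildtype and 30% (21.6 to 39.5%) of the 110 mutant members, and the intervals overlapped. The difference changed with the definition. Among core members the shares were 28.3% (16.8 to 42.3%) and 33.3% (23.4 to 44.5%). When 3 of the 5 lymphatic genes sufficed without Prox1, they were 23.7% (14.7 to 34.8%) and 29.1% (20.8 to 38.5%). After every member was thinned to 5500 UMIs, leaving out 7 wildtype and 1 mutant shallower members, the rule gave 8 of 60, or 13.3% (5.94 to 24.6%), and 28 of 94, or 29.8% (20.8 to 40.1%). With 3 of the 5 genes and no need of Prox1, the thinned cells gave 18.3% (9.52 to 30.4%) and 31.9% (22.7 to 42.3%). When members ranked in the highest 8% of doublet scores were dropped, 37 of the 76 wildtype and 23 of the 110 mutant members were lost. The shares were then 7.69% of the 39 wildtype members left and 25.3% in the mutant library. No interval was computed for them, and the wildtype value rests on few lymphatic cells. The share in the mutant library was the higher one in each of these forms, and more than 2 times the wildtype share for the thinned cells by the rule and for the cells left by the doublet scores.

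The genotypes were compared within each class, on CPM, with 1.5-fold as the mark for higher or lower. Among blood members 1186 of 9394 measured genes were higher in the mutant, 12.6%, and 616 were lower, 6.56%. Among core blood members 744 of 6840 were higher, 10.9%, and 578 were lower, 8.45%. Among lymphatic members 1031 of 6018 were higher, 17.1%, and 803 lower, 13.3%. Among core lymphatic members 636 of 4785 were higher, 13.3%, and 677 lower, 14.1%. Without the 1 wildtype core lymphatic cell with fibroblast markers it was 736 of 4554 higher and 619 lower. Scaling by the median of gene ratios in place of UMI totals moved the ratios up by 0.19 on the log2 scale between the lymphatic groups of the genotypes, in favour of the mutant, and by -0.12 between the wildtype classes. It moved the counts over all lymphatic members to 1553 higher and 425 lower.

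Wls itself, on chromosome 3 at 159839672 to 159938664, was the first gene looked at because the mutation targets it. Keratinocytes, where Cre acts, held 135 CPM in the wildtype and 2.66 CPM in the mutant library. Core blood cells held 24.7 CPM in the wildtype library, as 12 UMIs in 9 of 38 cells, and 12 CPM in the mutant library, as 13 UMIs in 6 of 56 cells. The log2 ratio was -1.05 (-2.29 to 0.22), and -2.25 (-4.11 to -0.64) on 12 and 5 UMIs without the 1 wildtype and 4 mutant core blood cells that held fibroblast and mural markers. Over all blood members Wls was 0.25 higher on the log2 scale in the mutant. Core lymphatic cells held 23.2 and 19.0 CPM, a log2 ratio of -0.29 (-1.93 to 1.59), so at these counts the direction in endothelium was not settled. Dermal cells held 91.8 and 77.0 CPM.

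The Wnt targets Axin2 and Lef1 were near the detection limit in endothelium of either genotype. Not all genes of the responder list were: Ccnd1 had 81 UMIs in mutant core lymphatic cells, without the cell low in lymphatic UMIs. Axin2, the general feedback target, had 3 UMIs in wildtype and 3 in mutant core blood cells, and 1 and 0 in core lymphatic cells. Lef1 had 1 and 4 UMIs in core blood cells and 1 and 0 in core lymphatic cells. In dermal cells of the same libraries Axin2 stood at 38.3 CPM in wildtype and 19.0 in mutant, and Lef1 at 54.2 and 6.92 CPM. Of 8 measured Wnt and beta-catenin responders in core blood cells, 0 were higher and 1 was lower, Myc, with a median of -0.22 against 0.00 over all genes. Myc, a growth regulator with many inputs, had 27 and 24 UMIs and a log2 ratio of -1.33 (-2.19 to -0.48). Over all blood members 1 of 14 responders was higher and 3 were lower, with a median of 0.05. Fzd4, the Frizzled receptor best known from retinal vessels, had 37 and 45 UMIs in core blood cells, a ratio of -0.88 (-1.54 to -0.21), and -0.22 over all blood members. Of 10 measured Wnt ligands, receptors and carriers in core blood cells, 2 were higher (Wnt5a and Adgra2) and 2 lower (Wls and Fzd4). Their median was -0.07, and 0.16 without the 1 wildtype and 4 mutant cells with fibroblast and mural markers. Over all core blood genes 10.9% were higher and 8.45% lower.

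G2M genes were lower in mutant core blood cells. Of 48 measured, 23 were lower past 1.5-fold and 0 higher, with a median of -0.57, against 8.45% lower over all core blood genes. Without the 5 cells it was 28 of 47 lower, with a median of -0.71, against 595 of 6429 over all genes. Over all blood members it was 7 of 52 lower and 0 higher, with a median of -0.08. Cenpf, a kinetochore protein, had 111 UMIs in 12 of 38 wildtype and 89 UMIs in 19 of 56 mutant core blood cells, a log2 ratio of -1.48 (-1.90 to -1.06). Ube2c, a mitotic ubiquitin-conjugating enzyme, had 195 and 193 UMIs, a ratio of -1.18 (-1.47 to -0.88), and Tpx2 and Cdc20 of the same list were also among the 10 lowest genes. The sums weight cells with many G2M transcripts. Counted by cell after thinning, 18 of 35 wildtype core blood cells (51.4%, 34 to 68.6%) and 25 of 55 mutant ones (45.5%, 32.0 to 59.4%) held 10 or more of the G2M genes, and these intervals overlap. Cenpf was found in 28.6% (14.6 to 46.3%) of thinned wildtype and 20.0% (10.4 to 33.0%) of thinned mutant core blood cells. S phase genes had 4 of 40 higher and 0 lower, with a median of 0.19, near the 10.9% higher over all core blood genes. In thinned dermal cells of the same libraries Cenpf was found in 25.5% of wildtype and 15.4% of mutant cells.

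Summed over cells, arterial genes had higher CPM in mutant blood cells by an amount that turned on a few cells. The share of arterial-like cells was not higher: that cluster held 14 of 61 wildtype and 15 of 77 mutant blood members. Over all blood members 11 of 18 were higher and 0 lower, with a median of 0.68. Among core blood cells 4 were higher, Hey1, Jag2, Cxcl12 and Vegfc, with a median of 0.34. Without the 1 wildtype and 4 mutant cells it was 13 higher, with a median of 1.21, against 697 of 6429 over all genes. The cells left out were unlike: the wildtype one held all 10 endothelial genes and 1.10% endothelial UMIs. Of its 6728 UMIs, 0.0743% were in fibroblast and 0.0446% in mural markers. In the 4 mutant cells 0.494 to 1.18% of UMIs were in fibroblast markers. That wildtype cell held 11 of the 17 Gja5 UMIs, and leaving it out moved Gja5, an arterial connexin, from 0.48 (-0.33 to 1.36) to 2.16 (0.94 to 3.67). Gja4 had 82 UMIs in wildtype and 261 in mutant core blood cells, or 169 and 240 CPM, a log2 ratio of 0.51 (0.15 to 0.89). After thinning it was found in 31.4% (16.9 to 49.3%) of wildtype and 25.5% (14.7 to 39.0%) of mutant core blood cells, a share that ran opposite to the CPM. Cxcl12, the chemokine that guides arterial growth, had 14 UMIs in 6 of 38 wildtype and 91 UMIs in 12 of 56 mutant cells, a ratio of 1.54 (0.72 to 2.47), and Vegfc had 9 and 55 UMIs, a ratio of 1.45 (0.42 to 2.65). Cxcl12 was also at 84.9 CPM in wildtype and 173 CPM in mutant dermal cells; the part of dermal transcripts in the endothelial values was not tested.

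Collagens and other fibroblast genes led the genes higher in mutant core blood cells, and they came from few cells. Col1a1, Col1a2, Col3a1, Dcn and Meg3 had log2 ratios of 4.07, 4.09, 3.87, 4.02 and 3.25. Col1a1, a chain of type I collagen, had 8 UMIs in wildtype and 300 in mutant core blood cells, of which 153 were in 1 cell. Without the cells named above Col1a1 had 7 and 21 UMIs, a ratio of 0.60 (-0.69 to 2.08), and Dcn (decorin) had 3 and 4 UMIs, a ratio of -0.57 (-3.13 to 2.20). The flow-response factors Klf2 and Klf4 were lower, at -0.70 (-1.01 to -0.38) and -1.06 (-1.87 to -0.25); without those cells Klf2 was at -0.58 (-0.90 to -0.27) and Klf4 at -0.52 (-1.38 to 0.36). Edn1, the endothelin 1 gene, changed sign, from -0.85 (-1.74 to 0.05) to 1.34 (-0.07 to 3.08), with 16 of its 21 wildtype UMIs in the wildtype cell left out. Of 17 lipid transport genes, 2 were higher and 0 lower, with a median of 0.02, near the 10.9% higher over all core blood genes. Fabp4 was at 799 CPM in wildtype and 1011 CPM in mutant core blood cells.

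Among the named genes Gm10320 had the lowest ratio over all blood members, with 226 UMIs in 53 of 61 wildtype cells and 1 UMI in 77 mutant cells, a log2 ratio of -8.38 (-13.69 to -5.88). Tpm3-rs7 was at 106 and 18 UMIs, a ratio of -3.12 (-3.92 to -2.39). Both are annotated copies of other genes, so how their reads were divided is uncertain. Histone genes led the higher end, Hist1h2ae at 2.17 (1.75 to 2.61) and Hist1h4d at 2.08 (1.55 to 2.66) over all blood members, and the reads of these near-identical genes are uncertain as well. In core blood cells Hist1h2ae was at 0.88 and Hist1h4d at 1.59.

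**Figure D4:**
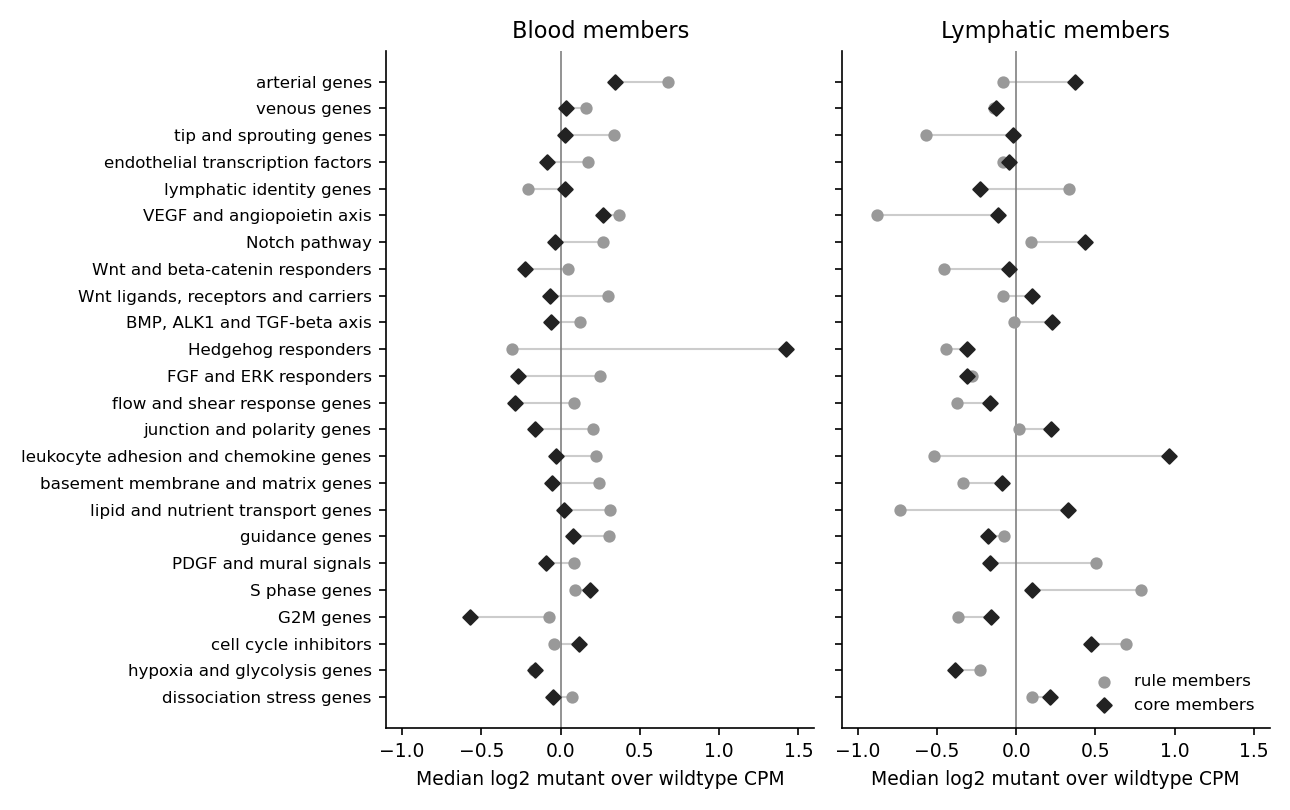
Median log2 ratio of mutant over wildtype (x axis) for each of 24 gene lists (y axis), in blood cells (left) and lymphatic cells (right). Circles are all members and diamonds are core members; arterial genes in blood cells lie at 0.68 and 0.34, G2M genes in blood cells at -0.08 and -0.57, and S phase genes in lymphatic cells at 0.79 and 0.10.

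Lymphatic cells were chosen on lymphatic genes in each library, so that they carry such genes in both genotypes was set by the selection. The lymphatic identity list, which holds none of the genes that chose them, showed no common direction between the genotypes. Of 22 measured lymphatic identity genes, 3 were higher and 6 lower in mutant core lymphatic cells, with a median of -0.23 against -0.06 over all genes; over all lymphatic members 8 were higher and 4 lower, with a median of 0.33. Nts was lower, with 61 UMIs in 9 of 15 wildtype and 55 UMIs in 12 of 28 mutant cells, a ratio of -1.57 (-2.13 to -1.02), and Pdpn was at -0.76 (-1.37 to -0.14). After thinning Pdpn was found in 36.4% (10.9 to 69.2%) of 11 wildtype and 50% (30.6 to 69.4%) of 28 mutant core lymphatic cells, a share that ran opposite to the CPM. Angpt2 had 21 and 19 UMIs, a ratio of -1.57 (-2.54 to -0.60). Pard6g, a cell polarity protein, was higher, with 19 UMIs in 13 of 15 and 90 UMIs in 25 of 28 cells, a ratio of 0.82 (0.09 to 1.62). Lyve1 was at -0.23 (-0.57 to 0.13). The wildtype core lymphatic cells were shallower, with a median of 9138 UMIs against 17330.5.

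Gja4 was higher in mutant lymphatic cells, in which it was spread over many cells. It had 1 UMI in 1 of 15 wildtype core lymphatic cells and 57 UMIs in 13 of 28 mutant ones, 21 of them in 1 cell. The log2 ratio was 4.41 (1.87 to 9.74), and 3.28 (1.37 to 6.36) over all lymphatic members on 2 and 59 UMIs. After thinning, Gja4 was found in 0 of 11 wildtype cells, which allows a share of up to 27.3% (28.5% by the exact interval), and in 10 of 28 mutant cells, 35.7% (18.6 to 55.9%), and these intervals overlap. Gja5 was at 0 UMIs in the lymphatic cells of both libraries. Mpp7, a polarity scaffold protein, had 6 UMIs in 5 of 15 and 58 UMIs in 19 of 28 cells, a ratio of 1.85 (0.64 to 3.35). Rtn1, a reticulon of the endoplasmic reticulum, was lower, with 45 UMIs in 10 of 15 and 24 UMIs in 10 of 28 cells, a ratio of -2.33 (-3.11 to -1.58).

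Other large values in lymphatic cells came from 1 cell or changed with the members. Of 127 Ifitm3 UMIs in mutant core lymphatic cells 73 were in 1 cell, and of 90 Crabp1 UMIs in wildtype core lymphatic cells 85 were in 1 cell. Fabp4 had 171 and 33 UMIs over all lymphatic members, a ratio of -3.97, with 114 of the 171 in 1 cell, and was at 0.47 (-0.77 to 1.92) in core lymphatic cells. Lipid and nutrient transport genes were 10 of 17 lower and 3 higher over all lymphatic members, with a median of -0.73, and 1 of 11 lower and 3 higher in core lymphatic cells, with a median of 0.33. S phase genes were 24 of 39 higher and 0 lower over all lymphatic members, with a median of 0.79, but 10 of 29 higher and 4 lower in core cells, with a median of 0.10, 10 of 26 higher and 1 lower without the wildtype cell that held fibroblast markers, with a median of 0.33, and at a median of -0.24 over all lymphatic members after thinning. G2M genes were 4 of 40 higher and 7 lower in core cells, with a median of -0.16, and without that wildtype cell 6 of 39 higher and 5 lower, with a median of -0.02. After thinning, 6 of 11 wildtype (54.5%, 23.4 to 83.3%) and 8 of 28 mutant core lymphatic cells (28.6%, 13.2 to 48.7%) held 10 or more G2M genes, and the intervals overlapped.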

How the data were processed

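Skin from 1 wildtype and 1 Wntless mutant pool of embryos was measured with the 10x Chromium 3′ version 3.1 chemistry. The authors deposited raw UMI counts per gene and barcode, and the file headers name Cell Ranger 6.1.2; mm10 and Seurat are named in the submitters' processing notes, and how the dermal lists were chosen is not given in the sources used here. Other information deposited by the authors, gene names and barcodes, was used as it stands. Of 32285 gene rows, those sharing a symbol were summed, which left 32245 genes.

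Members were filtered as the opening describes, and the members and the 24 gene lists were chosen with earlier results of these data known. UMIs were summed per class and library, scaled to CPM and compared as log2 ratios with exact conditional binomial intervals (Clopper-Pearson, 95%); a 0 was set to 3 counts, and a gene was measured with 20 or more UMIs over the groups compared. Genes were named as the 12 highest and lowest for lymphatic against blood (50 or more UMIs in each library), 10 for blood (100) and 6 for lymphatic genotype ratios (60), plus up to 4 genes per list; mitochondrial, ribosomal, haemoglobin and sex-linked genes and genes below 5% of the level in their highest class were left out. The ratio code was tested on simulated data. Doublets were scored with Scrublet, which called 3.48% of wildtype and 2.88% of mutant barcodes and were not removed; the top 8% of scores held 37 wildtype and 23 mutant members, among them 20 and 11 core members. Thinning drew 5500 UMIs per cell. Member clusters came from Leiden clustering at resolution 0.6. Gene coordinates are those of GENCODE mouse release 21. Python 3.11.15, numpy 2.4.6, scipy 1.17.1, pandas 2.3.3, scanpy 1.11.5, leidenalg 0.10.2 and matplotlib 3.10.9 were used. Alternatives covered the member, lymphatic, doublet, depth, scaling and low-count choices, and each embryo's own share of a pool was not analysed here. A gene that the rule for named genes picked is not reported here.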

Additional observations from a re-analysis of the deposited data

Results flagged for a closer look

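For 9 flagged genes the mutant over wildtype log2 ratio ran in opposite directions past 1.5-fold in core blood and core lymphatic cells. They are not a full count. Smo and Calcrl (higher in blood) and Foxo1, Aurka and Ckap2l (lower in blood) did so as well. Over all measured genes 10.9% were higher and 8.45% lower in core blood cells, and 13.3% and 14.1% in core lymphatic cells. The difference between the classes was not tested. The 9 flagged genes include fibroblast genes. Col1a1 was at 4.068 in blood and -2.009 in lymphatic cells, and Col1a2 at 4.091 and -3.043. Col3a1 was at 3.874 and -2.461, Dcn at 4.022 and -2.231 and Meg3 at 3.254 and -2.331. Crabp1, a retinoic acid binding protein, was at 1.725 and -5.108. Without the 5 blood cells and 1 lymphatic cell that held fibroblast and mural markers, these 6 genes were no longer past 1.5-fold in opposite directions: Col1a1 was at 0.60 in blood and 1.61 in lymphatic cells, Col1a2 at 1.01 and 0.96, Col3a1 at 0.97 and -0.19, Dcn at -0.57 and 0.15, Meg3 at 2.37 and 0.15 and Crabp1 at -1.82 and -1.37. In the wildtype lymphatic cells 1 cell held 31 of 33 Col1a1, 41 of 43 Col1a2, 33 of 39 Col3a1, 85 of 90 Crabp1 and 13 of 15 Meg3 UMIs, and in the mutant blood cells 1 cell held 153 of 300 Col1a1, 163 of 343 Col1a2 and 86 of 170 Crabp1 UMIs.

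Among the remaining flagged genes, Icam1, a leukocyte adhesion molecule, was at -0.8132 in blood cells (33 and 42 UMIs) and 2.036 in lymphatic cells (2 and 22 UMIs). Abca1, a cholesterol exporter, was at -0.833 in blood (47 and 59 UMIs) and 1.261 in lymphatic cells (7 and 45 UMIs). Prc1, a protein of the mitotic spindle midzone, was at -1.009 in blood (90 and 100 UMIs) and 1.014 in lymphatic cells (12 and 65 UMIs). Without those 6 cells Icam1 was at -0.70 (-1.41 to 0.02) and 1.61 (-0.42 to 4.74), Abca1 at -0.70 (-1.29 to -0.11) and 1.05 (-0.18 to 2.58), and Prc1 at -1.29 (-1.75 to -0.83) and 2.17 (0.75 to 4.09).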

How the results depend on the processing

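No paired analysis was possible because each genotype has 1 library. Calling lymphatic cells from Prox1 alone or from 3 lymphatic genes with Prox1, asking for 6 or more endothelial genes, allowing under 5% mitochondrial UMIs and keeping dermal barcodes each reversed no list median past 1.5-fold and moved no count over all genes by more than 1.5 times. The main counts are 76 and 110 members, 19.74% and 30% lymphatic, 275 higher and 330 lower for lymphatic against blood, 1186 and 616 for blood and 1031 and 803 for lymphatic genotype ratios. With 3 endothelial genes, there were 197 mutant members, 16.75% lymphatic, with 439 genes higher in lymphatic cells. Without the top 8% of doublet scores, 39 wildtype members remained, 7.692% lymphatic, with 119 genes higher and 105 lower in lymphatic cells. Thinning gave 141 and 188 for the classes, 466 higher for blood and 269 and 335 for lymphatic genotype ratios. Means over members gave 511 lower for the classes and 958 lower for blood. Median-of-ratios scaling gave 1553 and 425 for lymphatic genotype ratios. At 10 UMIs, 944 were lower for blood and 1704 and 1263 passed for lymphatic genotype ratios; at 50 UMIs it was 180 higher for the classes, 583 and 250 for blood and 287 and 298 for lymphatic ones. Leaving out members with markers of another class gave 727 (blood) and 682 (lymphatic) higher. Core members gave 744 of 6840 and 636 of 4785 measured genes. Core members under 0.1% fibroblast and mural UMIs gave 697 of 6429 for blood. Core members without the mutant cell low in lymphatic UMIs gave 744 of 6840 and 664 of 4664. Over all members 9394 and 6018 genes were measured. The number measured changes with the UMI limit, the depth and the members, so these counts cannot be compared as shares.

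List medians past 1.5-fold over all members that changed sign were as follows; the cause was not tested. For lymphatic against blood in the wildtype library, flow genes went to 0.1601 (3 endothelial genes), 0.6541 (doublets left out), 0.341 (thinned) and 0.07282 (mean over members). Hedgehog genes went to 1.451 (other markers left out), 1.565 (doublets), 0.3443 (thinned), 0.1063 (Prox1 not required) and 1.533 (core, with and without the cell low in lymphatic UMIs). Their medians rest on 6 measured genes over all members and 3 among core members, for the classes and for the genotypes in blood. PDGF genes went to 0.06158 (doublets), 0.2708 (thinned) and 0.1195 (core under 0.1%), cell cycle inhibitors to 0.227 and dissociation stress genes to 0.3424 (doublets). In the mutant library guidance genes went to 0.1271 (50 UMIs) and Wnt ligands and receptors to 0.215 (core under 0.1%). For the genotypes in lymphatic cells, VEGF genes went to 0.3823 (doublets) and 0.0119 (50 UMIs), cell cycle inhibitors to -0.74 (doublets) and -0.05208 (Prox1 not required), S phase genes to -0.2413 (thinned) and lipid transport genes to 0.3264 (core), 0.2635 (core under 0.1%) and 0.1662 (core without that cell). Smaller medians crossed 0 as well: from all to core members lymphatic identity genes went from 0.33 to -0.23 for the genotypes in lymphatic cells, sprouting genes from 0.56 to -0.67 for the wildtype classes and Hedgehog genes from -0.31 to 1.42 for blood. Depth limits Wnt targets and single genes in the 15 wildtype lymphatic cells.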

Other observations

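Axon guidance genes differed between the vessel classes of core cells in named members more than as a list: 3 of 20 were higher in lymphatic cells, 3 were lower, and the medians were -0.35 in the wildtype and -0.31 in the mutant library; without the 6 core cells with fibroblast and mural markers it was 3 of 18 higher and 2 lower, with medians of -0.01 and -0.23, and over all members 4 of 27 higher and 4 lower. Sema3d, a secreted semaphorin, had 0 UMIs in blood cells of both libraries and 8 UMIs in 7 of 15 wildtype and 36 UMIs in 15 of 28 mutant lymphatic cells. Ntn1, the guidance cue netrin 1, had 8 UMIs in 7 of 15 and 20 UMIs in 15 of 28 lymphatic cells against 0 and 5 in blood cells. Robo4, a receptor that steadies blood vessels, had 55 and 87 UMIs in blood cells and 2 and 14 in lymphatic cells. Connexins were divided as well: Gja1 had log2 ratios of 1.73 (1.11 to 2.36) and 2.32 (1.91 to 2.74) in favour of lymphatic cells, while Gja4 and Gja5 were higher in blood cells of the core set. Over all members Gja4 alone of the 2 was past the limit, and without the 6 cells 1 of 19 junction genes was lower in lymphatic cells.

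Immediate early genes that dissociation can raise were lower in lymphatic cells for 4 of 13 measured, Fos, Atf3, Ier2 and Zfp36, with medians of -1.07 and -0.78. Without the 6 cells it was 2 of 13, and over all members 3 of 14. Their genotype median in core blood cells was -0.05 with 0 of 13 past 1.5-fold. In the mutant core lymphatic cells 55 of 58 UMIs of Isg15, an interferon response gene, were in 1 cell, and the 15 wildtype cells held 0.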
